A study of Mus musculus with 18 samples.

Results

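The genes described here are 54 axon guidance and interneuron migration genes, taken as a fixed list of gene names from the 20665 autosomal protein-coding genes of the mouse. A gene was given every interval of enriched H3K27me3 that touched its gene body or the 2.5 kb on either side (its window), in 12 libraries of the medial ganglionic eminence (MGE). The list holds 9 semaphorin ligands, 8 semaphorin receptors, 3 Slit ligands, 3 Robo receptors, 1 netrin ligand, 5 netrin receptors, 12 Eph receptors, 7 ephrin ligands, 1 chemokine ligand, 2 chemokine receptors, 2 neuregulin ligands and 1 neuregulin receptor. The list was given by name, with no threshold on a measured value, but it was chosen with earlier results of these data known.

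H3K27me3, trimethylation of lysine 27 on histone H3, was profiled by bulk CUT&Tag, in which an antibody directs a transposase to the marked chromatin and the DNA beside it is tagged and sequenced. Embryos of both genotypes, WT and KO, were studied at 2 stages, E12.5 and E15.5, which gives 4 groups of 3 libraries. A further 6 of the 18 samples, all heterozygous, were not analysed here. The KO genotype is given as Nkx2.1-CreC/+;Ezh2;Ai9F/+. The cross paired males that were Nkx2.1-CreC/C;Ezh2F/+ with females that were Ai9F/F;Ezh2F/+, so that the WT and KO embryos both carried the Cre and the Ai9 (tdTomato) reporter alleles, as the series' design text describes. Recombination is limited to cells with a history of Nkx2.1 activity, and other cells of the dissected tissue keep Ezh2. The whole MGE was taken at E12.5, whereas the MGE was dissected by its Tom fluorescence at E15.5, and MGEs of embryos of one genotype were combined where applicable, so a difference between the stages is also one between dissections. The labels number the libraries as biological replicates without saying which embryos went into each, and p-values measure the spread between these libraries.

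Ezh2 is a catalytic subunit of Polycomb repressive complex 2, which places H3K27me3 at developmental genes that are held silent. Interneurons born in the MGE migrate tangentially into the cortex and striatum, and read attractive and repulsive cues on the way. Semaphorins act through neuropilins and plexins, Slits through Robo receptors, netrin through Dcc and the Unc5 receptors, ephrins through Eph receptors, Cxcl12 through Cxcr4 and Ackr3, and neuregulins through Erbb4. An interval at a gene marks chromatin and not expression, and in bulk tissue fewer cells with the mark and less mark per cell cannot be told apart.

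The libraries differed in depth, which was recovered as the mean count per 200 bp window and was lowest in replicate 1 of E15.5 WT (0.0751) and highest in replicate 2 of E12.5 WT (0.698). At E12.5 it ranged from 0.117 to 0.698 (WT) and from 0.212 to 0.272 (KO), and at E15.5 from 0.0751 to 0.150 (WT) and from 0.179 to 0.346 (KO). The lists held 5008 to 13289 intervals. A normalised count is the count in the intervals of a window, brought to one depth, the mean over all 12. Ezh2 itself had an interval in 0 of 12 libraries, so the lists do not check the deletion. The MGE markers Nkx2-1, Lhx6, Lhx8, Dlx1 and Dlx2 had an interval in all 12 libraries. The pallial markers Emx1, Eomes and Tbr1 had one in 12 and Neurod6 in 6. None of the microglia and blood markers Ptprc, Csf1r, Cx3cr1 and Hba-a1 had one, and of the endothelial markers Cldn5 had one in 12 while Pecam1 and Cdh5 had none. The marker intervals cannot check the tissue label, because the mark is not a measure of expression.

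The 4 promoters below are shown because they span the range of the results. Slit3 and Unc5c were the members with a genotype difference past the threshold, Efna3 was the member covered most fully, and Sema3c had a CG-rich start and no interval in any library. Each line gives the 250 bases before a listed start from RefSeq (GRCm38.p6), 5′ to 3′ along the gene, with CG dinucleotides in capitals.
Slit3 (chr11:35121206-35121455, plus strand): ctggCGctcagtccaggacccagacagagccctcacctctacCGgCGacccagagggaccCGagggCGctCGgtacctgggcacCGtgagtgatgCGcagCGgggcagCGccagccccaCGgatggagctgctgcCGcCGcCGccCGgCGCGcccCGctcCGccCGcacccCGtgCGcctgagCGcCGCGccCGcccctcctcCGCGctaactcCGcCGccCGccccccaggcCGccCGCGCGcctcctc
Unc5c (chr3:141465314-141465563, plus strand): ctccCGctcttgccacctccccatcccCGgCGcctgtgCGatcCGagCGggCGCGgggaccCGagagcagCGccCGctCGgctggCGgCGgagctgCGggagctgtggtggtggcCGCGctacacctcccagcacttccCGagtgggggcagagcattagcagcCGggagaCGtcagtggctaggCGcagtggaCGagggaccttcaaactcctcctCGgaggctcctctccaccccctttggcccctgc
Efna3 (chr3:89321769-89322018, minus strand): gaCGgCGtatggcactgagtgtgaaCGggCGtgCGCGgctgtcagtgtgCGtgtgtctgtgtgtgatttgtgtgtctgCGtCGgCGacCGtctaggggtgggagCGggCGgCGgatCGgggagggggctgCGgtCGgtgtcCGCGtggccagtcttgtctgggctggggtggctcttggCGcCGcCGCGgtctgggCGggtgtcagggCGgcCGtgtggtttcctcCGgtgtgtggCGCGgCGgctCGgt
Sema3c (chr5:17574566-17574815, plus strand): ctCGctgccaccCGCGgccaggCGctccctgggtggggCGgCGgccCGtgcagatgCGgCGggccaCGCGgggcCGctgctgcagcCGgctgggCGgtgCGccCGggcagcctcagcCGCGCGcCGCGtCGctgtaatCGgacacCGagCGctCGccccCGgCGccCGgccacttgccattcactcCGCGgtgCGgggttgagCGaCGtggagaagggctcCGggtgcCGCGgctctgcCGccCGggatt

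These stretches held 35 CG dinucleotides at Slit3, 23 at Unc5c, 31 at Efna3 and 39 at Sema3c. Efna3 has 2 listed starts, both covered in all 12 libraries. The one richer in CG dinucleotides was shown, and the other held 19. Of the 20085 promoters listed, 3.96% held at least as many as Slit3, 18.1% as many as Unc5c, 6.96% as many as Efna3 and 2.02% as many as Sema3c. The start was covered by an interval in all 12 libraries at Slit3, Unc5c and Efna3, and in 0 of 12 at Sema3c. Sema3c was chosen for this contrast. Promoters were listed for 44 members. The 11 whose start was covered in all 12 libraries had a median of 23 CG dinucleotides, the 27 covered in 1 to 11 libraries a median of 15, and the 6 covered in none (Sema3c, Sema3g, Sema5a, Plxna2, Ephb6 and Efna5) a median of 22.5. The median GC content of these 3 classes was 66.8%, 62.8% and 73.4%. Over all autosomal genes with a listed promoter it was 63.2%, 62.4% and 52.4% in the same order, and the median number of CG dinucleotides lay between 15 and 16 for starts covered in all 12 libraries, at 16 for those in 1 to 11 and at 6 for those in none.

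H3K27me3 intervals were frequent at the guidance genes. Of the 54 members, 19 (35.2%) had an interval in all 12 libraries, against 12.1% of all autosomal genes, and 4 (7.41%) had one in none, against 61.2%. The 4 without any interval were the ligands Sema3c, Sema3g and Efnb3 and the receptor Ephb6. The other 31 had an interval in some libraries. The comparison with all genes made no allowance for gene length, and some members are very long (Robo2 1555 kb, Nrg3 1108 kb). It is also not independent of these data, since their earlier results were known when the members were chosen. Of the 37 other guidance ligands and receptors described below, 37.8% had an interval in all 12 libraries and 10.8% in none. By library, 29 to 43 (WT) and 28 to 41 (KO) members had an interval at E12.5, and 24 to 33 (WT) and 30 to 38 (KO) at E15.5. The 24 members of E15.5 WT replicate 1 go with the lowest depth of the 12 libraries.

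**Figure D1:**
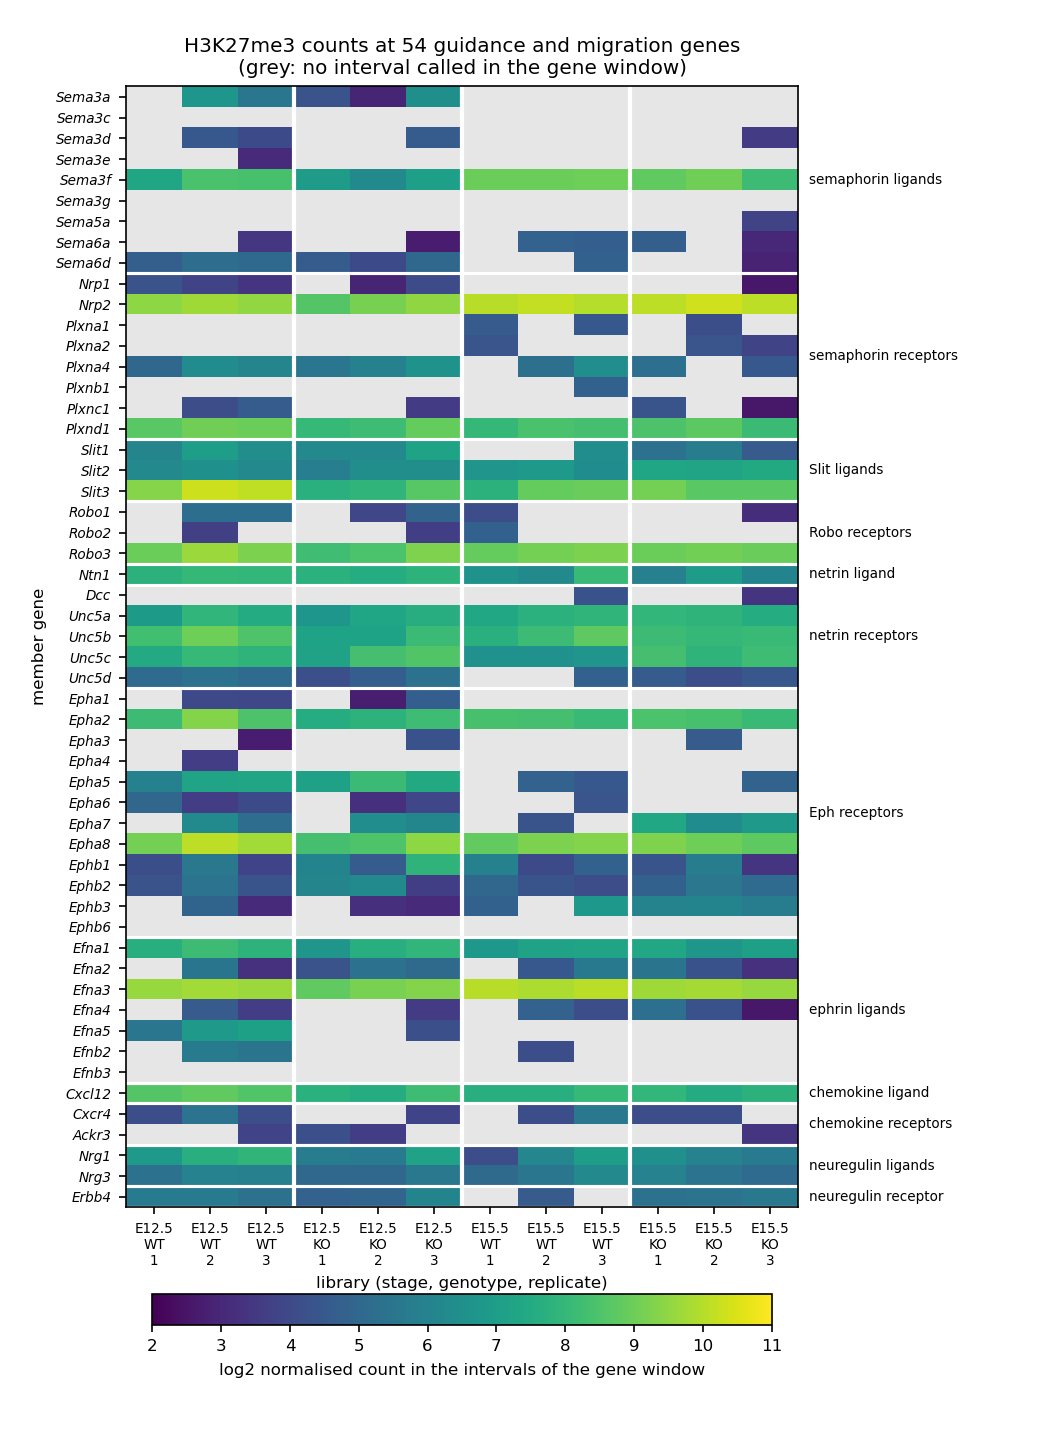
Normalised H3K27me3 count (log2 colour scale) in the intervals of each member's window (rows, grouped by role) in the 12 libraries (columns), with grey where no interval was called. The rows of Nrp2, Efna3, Epha8 and Robo3 are bright in every library, whereas those of Sema3c, Sema3g, Ephb6 and Efnb3 are grey throughout.

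The merged regions shared by all libraries held the starts of members. Merged over the 12 lists, 141 regions touched the members' windows, none of them shared by 2 members. Of these, 17 were in all 12 lists and 56 in a single list. Among members with a listed start, 14 of the 14 regions found in all 12 lists held a start, with a median length of 13.2 kb. A merged region can hold a start that the interval of a single library does not reach, and the start itself was covered in 7 of 12 libraries at Slit2 and Nrg3 and in 11 at Unc5a. Of the 47 regions found in 1 list 10.6% held a start, of the 37 in 2 to 5 lists 24.3%, and of the 21 in 6 to 11 lists 47.6%. For regions at all genes with a listed start these shares were 82.0% of 1697 in all lists, 21.5% in 1, 50.3% in 2 to 5 and 70.5% in 6 to 11. Longer genes collect more regions, and Slit3, with a gene body of 587 kb, had 24, 11 of them in a single list.

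By the share of the window covered, Efna3 led with a median of 69.8% over the 12 libraries. Efna1 followed with 45.7%, Cxcl12 with 40.8%, Epha8 with 37.0% and Robo3 with 29.6%. All 5 are short genes whose main region holds a start. The very long genes lay at the low end, with medians of 0.35% at Erbb4, 0.68% at Nrg1 and 0.05% at Robo1.

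The comparison of genotypes asked how loss of Ezh2 in the Nkx2.1 lineage changes the mark at these genes. At E12.5, Slit3 was the only member to pass the test, and it fell in the KO. That is 1 of 25 members with an interval in all 6 libraries, where 4.04% of the 3140 genes tested were lower and 0% higher. At E15.5, Unc5c was the only member to pass, and it rose in the KO. That is 1 of 19, where 0.408% of 2695 genes were higher and 0.0742% lower. The counts were tested with edgeR's quasi-likelihood test at an adjusted p below 0.05, and genes with no interval in some library were outside the test. The members' median log2 change was -0.44 at E12.5 and -0.04 at E15.5, beside medians of -0.57 and -0.01 for all genes tested. The E12.5 shift of all genes depends on the scaling. With TMM factors it was -0.05, and the members' median became 0.10, so the E12.5 log2 changes of single members below are given with both scalings.

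**Figure D2:**
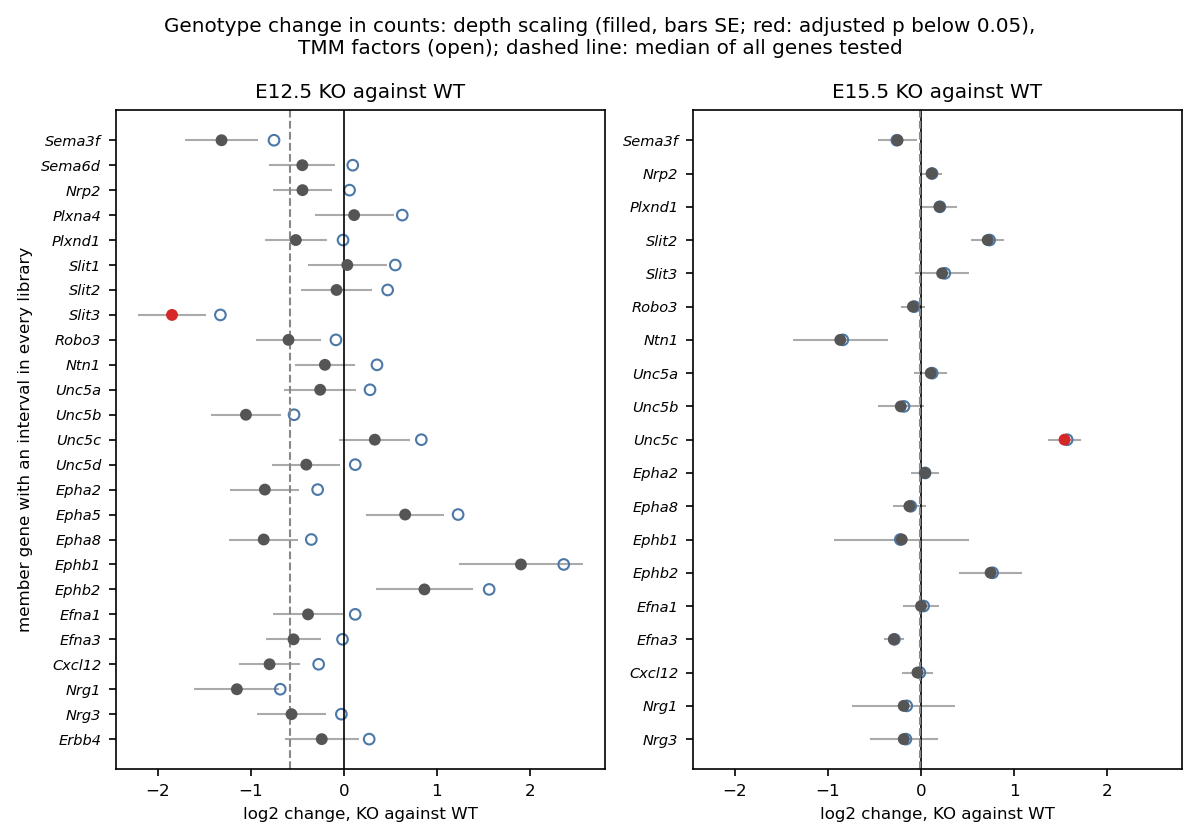
Log2 change in count, KO against WT, for members with an interval in all 6 libraries of a stage, with depth scaling (filled points, bars show the SE, red for an adjusted p below 0.05) and with TMM factors (open circles). The dashed line is the median of all genes tested, -0.57 at E12.5 and -0.01 at E15.5, and Slit3 at E12.5 and Unc5c at E15.5 are the red points.

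With TMM factors the same 2 members passed, where at E12.5 1.21% of genes were lower and 0.287% higher, and at E15.5 0.0742% were lower and 0.557% higher. DESeq2 called 1 member lower (Slit3) and 3 higher (Unc5c, Epha5 and Ephb1) at E12.5, where 3.12% of genes were lower and 2.32% higher. At E15.5 it called Unc5c alone, where 1.78% of genes were higher and 0.891% lower. At an unadjusted p below 0.05 by edgeR there were 8 members at E12.5, 7 lower and 1 higher, and 3 members at E15.5, 1 lower and 2 higher. Over all genes that level held 905 of 3140 at E12.5, 895 of them lower, and 303 of 2695 at E15.5, 108 of them lower. Over both stages, 0 of 19 members passed the test with depth scaling (5 at an unadjusted p below 0.05, beside 526 of 2492 genes), where 0.923% of genes were lower and 0.0401% higher. With TMM factors Unc5c and Slit2 were higher over both stages, 2 of 19 where 2.13% of genes were higher and 1.97% lower, and DESeq2 called the same 2 higher, where 4.17% of genes were higher and 4.53% lower. The genotype effect was not shown to differ between the stages for any of the 19 members (6 at an unadjusted p below 0.05, beside 686 of 2492 genes), where 0.562% of genes passed in the direction of a higher effect at E15.5 and 0% in the other. With TMM factors 0 of 19 passed, where 0.241% of genes had the higher effect at E15.5. DESeq2 called 1, Slit3, where 1.52% of genes were higher in this sense and 0.201% lower.

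Presence of an interval and covered length could be compared for all members, those outside the count test included. No member had an interval in all 3 libraries of one genotype and none of the other at either stage, a pattern seen at E12.5 in 0.598% of 7194 genes for loss in the KO and at E15.5 in 1.33% of 6446 genes for gain and 0.0465% for loss. At E12.5, the covered length of Slit3, Efna5, Nrg1 and Nrg3 was lower in every KO than in every WT library, 4 members where 8.99% of genes showed this pattern, and no member showed the reverse (0.0278% of genes). At E15.5, the covered length of Unc5c, Epha7 and Erbb4 was higher in every KO than in every WT library, 3 members where 6.13% of genes did so, and no member showed the reverse (0.295%). On average the WT libraries were deeper than the KO libraries at E12.5 and shallower at E15.5. At E15.5 this held for every library. At E12.5 it held for the mean only, since WT replicate 1 (0.117) was shallower than every KO library (0.212 to 0.272). The part of depth in them was not tested beyond lists cut to equal length, where 5 members had each pattern. The share of all genes with each pattern was not counted in the cut lists, so these 5 members have no background to be read against.

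**Figure D3:**
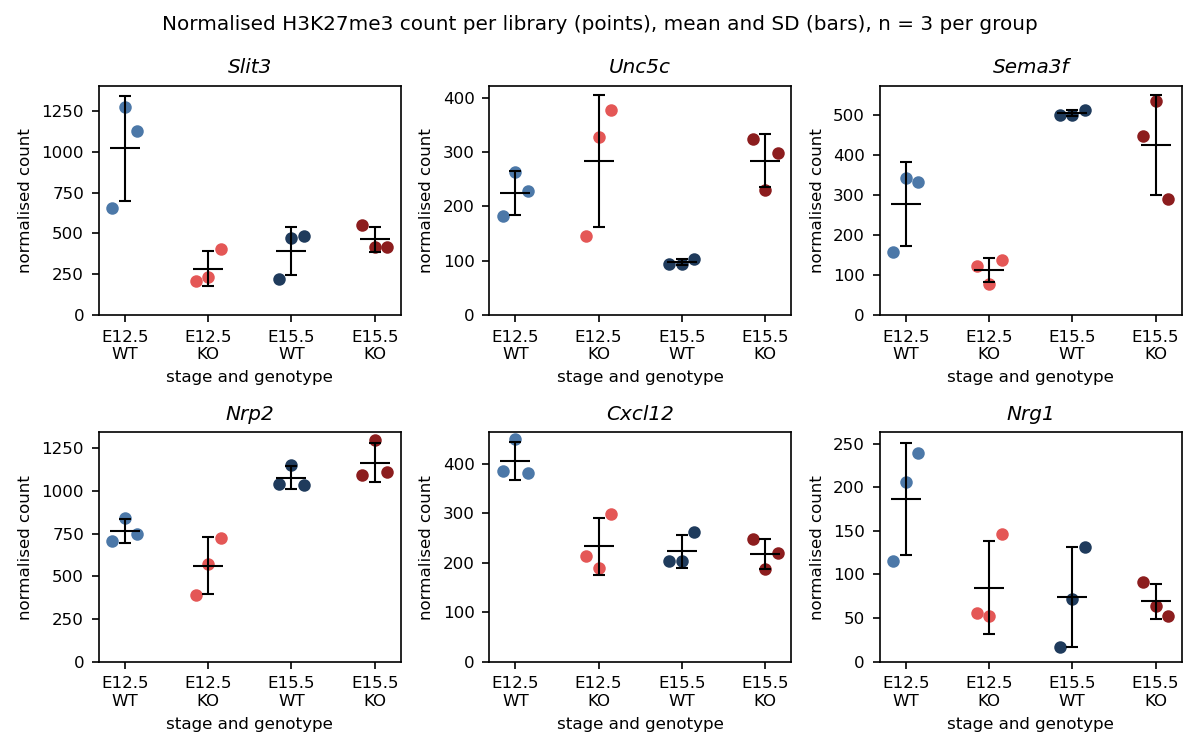
Normalised H3K27me3 count of 6 members in each library (points), with the mean and SD of each group (bars, n = 3), by stage and genotype. Slit3 is highest in E12.5 WT, Unc5c is lowest in E15.5 WT, and Sema3f and Nrp2 are higher at E15.5 than at E12.5 in both genotypes.

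Slit3 encodes a secreted repellent that signals through Robo receptors. At E12.5 its normalised counts were 656, 1276 and 1127 (WT) and 211, 235 and 407 (KO). At E15.5 they were 221, 470.1 and 487 (WT) and 553, 419 and 417 (KO). All 3 KO libraries lay below all 3 WT libraries at E12.5, while the genotypes overlapped at E15.5. The E12.5 log2 change was -1.84 (SE 0.37, adjusted p = 0.0113), and -1.33 with TMM factors (adjusted p = 0.0292). Without E12.5 KO replicate 1 the change was -1.67 and no longer passed (adjusted p = 0.159). Over the 13 alternatives the adjusted p ran from 1.21e-06 to 0.197, and 11 stayed below the threshold. The difference between the stages in the genotype effect was 2.07 (SE 0.48, adjusted p = 0.0696), and DESeq2 gave an adjusted p of 0.00256.

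The called intervals at Slit3 were compared region by region along the gene (GRCm38 chr11:35121456-35708507). A value of 0 below means that no interval was called, not that the signal was measured as 0. Whether the loss was uneven along the gene was not tested. The region over its start, chr11:35118001-35127800, was called in all 12 libraries, with normalised counts of 195, 285 and 231 (WT) and 96.8, 109 and 151 (KO) at E12.5. A region inside the gene body, chr11:35552601-35583000, had 182, 334 and 360.1 in E12.5 WT against 0, 0 and 27.8 in E12.5 KO. At E15.5 that inner region had 24.2, 141 and 125 in WT and 147, 124 and 85.7 in KO. That inner region, shown because its E12.5 fall in called counts was the largest, was called in 1 of 3 KO libraries at E12.5 and in 3 of 3 at E15.5. The 2 other inner regions below kept an interval in all 3 E12.5 KO libraries. One of them, chr11:35446801-35463000, had 124, 176 and 146 (WT) and 64.9, 75.4 and 99.4 (KO) at E12.5, and chr11:35539001-35546800 had 59.8, 88.6 and 83.8 (WT) and 28.2, 14.3 and 38.5 (KO). The covered length of Slit3 was 92.0 ± 41.9 kb in E12.5 WT and 24.2 ± 6.55 kb in E12.5 KO (SD, n = 3). E12.5 WT replicate 2, the deepest library, had the longest coverage of the gene, 131 kb.

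**Figure D4:**
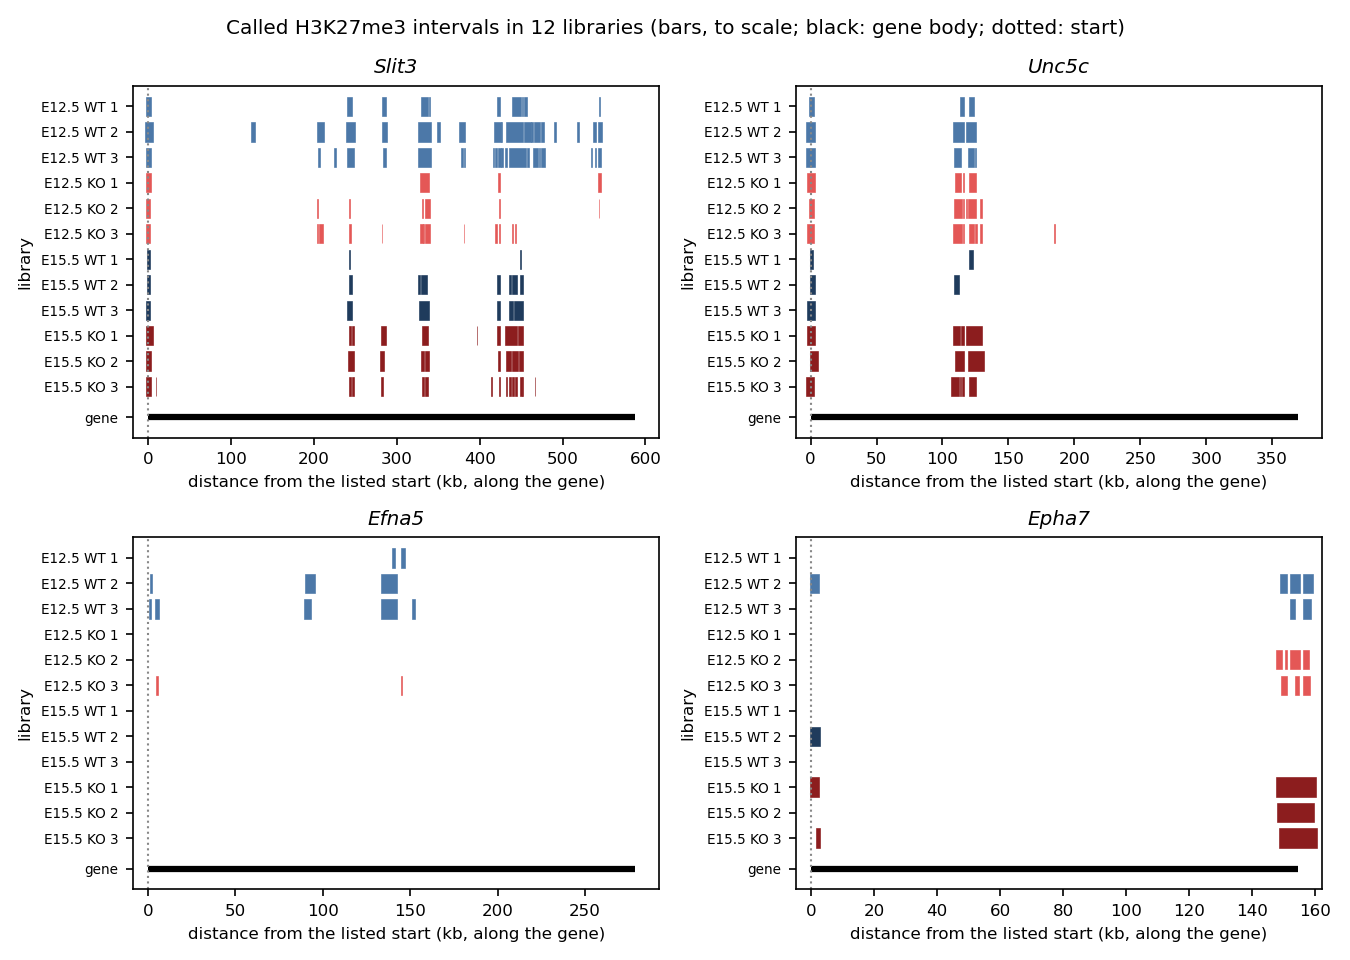
Called intervals (coloured bars) at Slit3, Unc5c, Efna5 and Epha7 in each of the 12 libraries (rows), against distance from the listed start along the gene in kb, with the gene body in black. Slit3 and Unc5c keep an interval at the start in all 12 libraries, the Efna5 intervals lie in E12.5 libraries only, and the block at the 3′ end of Epha7 is in 3 of 3 E15.5 KO and 0 of 3 E15.5 WT libraries.

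Slit2 did not pass the test for genotype at either single stage. Slit1 did not pass at E12.5 and was outside the test at E15.5. Slit2 had 75.3, 92.6 and 75.2 (WT) and 57.6, 86.8 and 86.5 (KO) at E12.5, and 104, 115 and 83.2 (WT) and 162, 153 and 178 (KO) at E15.5. The KO libraries were above the WT libraries at E15.5 only, where the log2 change of 0.72 (SE 0.18) had an adjusted p of 0.216. Over both stages its log2 change was 0.31 with depth scaling (adjusted p = 0.363) and 0.61 with TMM factors (adjusted p = 0.0238). Slit1 had 68.7, 132 and 88.1 (WT) and 74.7, 75.4 and 151 (KO) at E12.5. In E15.5 WT it had an interval in replicate 3 alone, with a count of 84.9, and in E15.5 KO it had 40.7, 56.6 and 24.1.

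Among the Robo receptors, Robo3, which tunes the Slit response of crossing axons, was marked in all 12 libraries and the other two only here and there. Robo3 had 503, 799 and 603 (WT) and 305, 350.2 and 609 (KO) at E12.5, and 467, 559 and 605 (WT) and 499, 544 and 493 (KO) at E15.5. Its genotypes overlapped at both stages. Robo1, a receptor of migrating interneurons, was called in 6 of 12 libraries, with 38 and 38.4 in E12.5 WT replicates 2 and 3, 15.3 and 28.8 in E12.5 KO replicates 2 and 3, 17.3 in E15.5 WT replicate 1 and 9.02 in E15.5 KO replicate 3. Robo2 was called in 3 of 12.

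Unc5c, which encodes a repulsive netrin receptor, had normalised counts of 93.4, 94.4 and 104 (WT) and 325, 230.0 and 299 (KO) at E15.5. At E12.5 it had 182, 263 and 229 (WT) and 146, 328 and 377 (KO). The genotypes did not overlap at E15.5 and overlapped at E12.5. The E15.5 log2 change was 1.54 (SE 0.17, adjusted p = 0.0249), and 1.57 with TMM factors (adjusted p = 0.0265). The size stayed between 1.44 and 1.67 when single libraries were left out. The call was lost without WT replicate 1 (adjusted p = 0.0609), WT replicate 2 (0.113), KO replicate 1 (0.132), KO replicate 2 (0.0745) or KO replicate 3 (0.0602), and 6 of 13 alternatives kept it. Over both stages the change was 0.91 with depth scaling (adjusted p = 0.130) and 1.18 with TMM factors (adjusted p = 0.00436). Without E12.5 KO replicate 1 the value with depth scaling was 1.13 (adjusted p = 0.0478).

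At Unc5c (chr3:141465564-141834924) the start region, chr3:141462201-141471000, was again called in all 12 libraries, with 62.3, 68.3 and 104 (WT) and 138, 85.5 and 122 (KO) at E15.5. Inside the gene body, chr3:141572401-141582200 had 0, 26.1 and 0 (WT) and 69.9, 56.6 and 88.0 (KO) at E15.5. Its neighbour, chr3:141583201-141597000, had 31.1, 0 and 0 (WT) and 116, 87.9 and 88.7 (KO) at E15.5. The start region overlapped between the genotypes, and both inner regions did not. Both inner regions were called in all 6 libraries of E12.5, and each in 1 of 3 WT libraries at E15.5. The E15.5 WT libraries had depths of 0.0751, 0.129 and 0.150, below every KO library. E12.5 WT replicate 1, with a depth of 0.117, had both inner regions, with normalised counts of 22.2 and 46.5, but it is of another stage and dissection. At E15.5 genotype and depth cannot be told apart here, and the part of depth was not tested.

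None of the other netrin genes that entered the test passed it for genotype. Dcc was outside the test at both stages and Unc5d at E15.5, because each lacked an interval in some library. Unc5a and Unc5b, 2 further receptors of this family, were marked in all 12 libraries. Unc5b had a log2 change of -1.05 (SE 0.37, adjusted p = 0.113) at E12.5, where its 3 KO libraries lay below its 3 WT libraries, and of -0.53 with TMM factors (adjusted p = 0.190). Unc5d was called in 10 of 12 libraries, and Dcc, the attractive netrin receptor, in 2. Ntn1, which encodes netrin itself, had 222, 257 and 247 (WT) and 216, 189 and 226 (KO) at E12.5, and 96.9, 78.4 and 270.4 (WT) and 61.1, 122 and 66.9 (KO) at E15.5. One E15.5 WT library, replicate 3, was as high as the E12.5 libraries.

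Of the semaphorins, only Sema3f was marked in all 12 libraries. Sema3f, a repellent for migrating interneurons that acts through Nrp2, had 157, 343 and 333 (WT) and 122, 79.2 and 137 (KO) at E12.5, and 502, 500.3 and 513 (WT) and 448, 536 and 289.5 (KO) at E15.5. Its window also takes in an interval over the neighbouring Gnat1 in some libraries. The region over Sema3f alone, chr9:107694601-107713200, had 157, 320.0 and 219, then 66.1, 79.2 and 137, then 502, 500.3 and 513, and last 384, 465 and 289.5 in the same group order. Both measures were lower in every E12.5 KO library than in every E12.5 WT library, and the log2 change of the window was -1.31 (SE 0.39, adjusted p = 0.0688), and -0.75 with TMM factors (adjusted p = 0.261). Sema3a, a repellent read through Nrp1, had an interval in 2 of 3 E12.5 WT and 3 of 3 E12.5 KO libraries and in 0 of 6 at E15.5. Sema6d was called in 8 libraries, Sema6a in 6, Sema3d in 4, and Sema3e and Sema5a in 1 each.

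The 2 neuropilins, the ligand-binding receptors of class 3 semaphorins, were marked very differently. Nrp2 had 705, 839 and 748 (WT) and 389, 572 and 724 (KO) at E12.5, and 1041, 1153 and 1035 (WT) and 1091, 1296 and 1108 (KO) at E15.5. Its genotypes overlapped at both stages. Nrp1 had 19.9, 14.5 and 10.3 (WT) and 0, 7.63 and 17.1 (KO) at E12.5. At E15.5 it had no interval in WT, and one in KO replicate 3 alone, with a count of 6.02. Plxnd1 was the plexin marked in all 12 libraries, with 484 ± 62.9 (WT) and 339 ± 109 (KO) at E12.5, and 307 ± 44.8 (WT) and 354 ± 71.1 (KO) at E15.5 (SD, n = 3). Plxna4 was called in 10 libraries, Plxnc1 in 5, Plxna1 and Plxna2 in 3 each and Plxnb1 in 1.

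Among the ephrin ligands were the most covered member, Efna3, and one called in 4 libraries, Efna5, 3 of them E12.5 WT. Efna3, a membrane-anchored ephrin of the A class, had 779.9, 868 and 795 (WT) and 442, 591 and 647 (KO) at E12.5, and 1038, 960.4 and 1075 (WT) and 839.7, 892 and 777 (KO) at E15.5. All KO libraries lay below all WT libraries at each stage, with log2 changes of -0.54 (SE 0.30, adjusted p = 0.213) at E12.5 and -0.29 (SE 0.11, adjusted p = 0.390) at E15.5. The E12.5 value was -0.01 with TMM factors (adjusted p = 0.967) and turned to 0.05 with DESeq2 (adjusted p = 0.929). Its neighbour Efna1 had 204, 288 and 226 (WT) and 103, 202 and 246 (KO) at E12.5, and 111, 147 and 153 (WT) and 169, 108 and 138 (KO) at E15.5, so that its genotypes overlapped at both stages. Efna5 had 46.5, 114 and 137 in E12.5 WT and 18.2 in E12.5 KO replicate 3, with no interval in the other 8 libraries. Its 6 regions lay inside the gene body and none held the listed start. Efna2 was called in 10 libraries, Efna4 in 8 and Efnb2 in 3.

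The Eph receptors ranged from Epha2, Epha8, Ephb1 and Ephb2, called in all 12 libraries, to Ephb6, called in none. Epha8 had 554, 1111 and 864 (WT) and 325, 369 and 702 (KO) at E12.5, and 460.1, 595 and 648 (WT) and 607, 520.2 and 438 (KO) at E15.5. Its genotypes overlapped at both stages. Ephb1 was uneven, with 66.1, 24.8 and 229 in E12.5 KO against 17.7, 49.1 and 14.1 in E12.5 WT. The highest of these, E12.5 KO replicate 3, weighs on its log2 change of 1.90 (SE 0.66, adjusted p = 0.110), which was 2.36 with TMM factors (adjusted p = 0.183) and 2.47 with DESeq2 (adjusted p = 0.00684).

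Epha7, an Eph receptor of the A class, had covered lengths of 0, 3.00 and 0 kb in E15.5 WT and 12.2, 9.0 and 9.80 kb in E15.5 KO. Most of this lay in chr4:28960801-28973600, which runs over the 3′ end of the gene, chr4:28813066-28967503. That region was called in 0 of 3 E15.5 WT, 3 of 3 E15.5 KO and 2 of 3 libraries in each E12.5 group. Epha4, a receptor that binds ephrins of both classes, had an interval in 1 of the 12 libraries, with a normalised count of 12.3 in E12.5 WT replicate 2, the deepest library. Epha5 was called in 9 libraries, Ephb3 in 9, Epha6 in 6, Epha1 in 4 and Epha3 in 3.

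In the chemokine axis the ligand was marked throughout and the receptors sparsely. Cxcl12 had 386, 449.8 and 381 (WT) and 213, 189 and 298 (KO) at E12.5, and 204, 203 and 262 (WT) and 247, 187 and 219.6 (KO) at E15.5. The E12.5 WT libraries lay above the 9 others. The E12.5 genotype change was -0.80 (SE 0.33, adjusted p = 0.149), and -0.27 with TMM factors (adjusted p = 0.380). Cxcr4, the signalling receptor that holds interneurons in their migratory streams, had 17.7, 42.8 and 17.8 (WT) and 13.9 (KO replicate 3 alone) at E12.5. At E15.5 it had 18.1 and 48.5 (WT replicates 2 and 3) and 17.5 and 18.1 (KO replicates 1 and 2). Ackr3, which scavenges Cxcl12, was called in 4 libraries, with 14.1 in E12.5 WT replicate 3, 18.4 and 12.4 in E12.5 KO replicates 1 and 2 and 10.5 in E15.5 KO replicate 3. Neither receptor entered the test with an interval asked for in every library, since each lacked one in some library of every comparison.

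Nrg1, a ligand that attracts interneurons expressing Erbb4, had 115, 207 and 239 (WT) and 56.3, 52.5 and 146 (KO) at E12.5, and 17.3, 72.3 and 132 (WT) and 91.7, 63.8 and 51.9 (KO) at E15.5. Its covered length was 14.2 ± 3.82 kb in E12.5 WT and 5.73 ± 1.47 kb in E12.5 KO, without overlap. The counts overlapped, with a log2 change of -1.15 (SE 0.46, adjusted p = 0.139), and -0.68 with TMM factors (adjusted p = 0.347). Nrg3, the other ligand, was covered over 4.60 ± 0.12 kb in E12.5 WT and 3.13 ± 0.90 kb in E12.5 KO (SD, n = 3). Erbb4, their receptor, had 53.2, 54 and 41.1 (WT) and 28.2, 30.5 and 66.2 (KO) at E12.5, and 24.1 (WT replicate 2 alone) and 42.2, 43.4 and 48.1 (KO) at E15.5. One region over its start, chr1:69103801-69109800, held nearly all of this and was called in 10 of 12 libraries, the 2 without it being E15.5 WT replicates 1 and 3.

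The stages were compared within each genotype. In WT, Efna1, Unc5c, Plxnd1, Cxcl12 and Slit3 fell from E12.5 to E15.5 and Nrp2 rose, 5 and 1 of 19 members where 35.8% of 2624 genes were lower and 1.71% higher. The median log2 change was -0.42 for the members and -0.58 for all genes tested. With TMM factors those medians were 0.08 and -0.10, and only Unc5c was lower while Nrp2, Efna3, Slit2, Sema3f and Unc5a were higher, where 17.1% of genes were lower and 10.3% higher. DESeq2 called 2 lower and 6 higher, where 14.6% of genes were lower and 14.2% higher. Unc5c fell by 1.21 (SE 0.23, adjusted p = 0.0132) on the log2 scale and by 0.73 with TMM factors (adjusted p = 0.00992). Nrp2 rose by 0.49 (SE 0.13, adjusted p = 0.0253) and by 0.97 with TMM factors (adjusted p = 0.00394), with all 3 E15.5 libraries above all 3 E12.5 libraries.

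The falls of Cxcl12 (-0.86, SE 0.18, adjusted p = 0.0171), Slit3 (-1.37, SE 0.36, adjusted p = 0.0278), Plxnd1 (-0.66, SE 0.19, adjusted p = 0.0332) and Efna1 (-0.80, SE 0.23, adjusted p = 0.0361) did not pass with TMM factors. For each of these genes all 3 E15.5 libraries lay below all 3 E12.5 libraries. Every one of the 6 WT calls was also lost without E12.5 WT replicate 3, E15.5 WT replicate 1 or E15.5 WT replicate 2, with adjusted p-values of at most 0.119. The call was lost without E12.5 WT replicate 2 for Plxnd1, Slit3 and Efna1, and without E15.5 WT replicate 3 for Nrp2, Plxnd1 and Efna1. Nrp1 and Efna5 had an interval in all 3 E12.5 WT libraries and in no E15.5 WT library, 2 members where 2.96% of 7275 genes showed this, and no member showed the reverse (0.0687% of genes). The covered length of Nrp1, Slit3, Unc5c, Epha5, Efna1 and Efna5 was lower in every E15.5 than in every E12.5 WT library, 6 members where 11.4% of genes did so, and no member was covered more without overlap (0.289%).

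In KO, Sema3f, Nrp2 and Slit2 rose from E12.5 to E15.5 and Ephb1, Ntn1 and Slit1 fell, 3 and 3 of 23 members where 4.13% of 3003 genes were higher and 5.49% lower. The medians were 0.10 for the members and -0.05 for all genes tested. With TMM factors 7 members were higher and 2, Ntn1 and Slit1, lower, where 8.82% of genes were higher and 7.69% lower. DESeq2 called 2 lower and 6 higher, where 8.59% of genes were lower and 10.2% higher. Sema3f rose by 1.91 (SE 0.33, adjusted p = 3.66e-05), and this call held in all 13 alternatives, with adjusted p-values of at most 0.00625 when a library was left out. Nrp2 rose by 1.05 (SE 0.30, adjusted p = 0.0181). For both Sema3f and Nrp2 all 3 E15.5 libraries were above all 3 E12.5 libraries. Whether ligand and receptor genes moved together was not tested.

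Slit2 rose by 1.09 (SE 0.36, adjusted p = 0.0403), with all 3 E15.5 KO libraries above all 3 at E12.5. Ntn1 had a log2 change of -1.34 (SE 0.35, adjusted p = 0.00909) and Slit1 of -1.33 (SE 0.41, adjusted p = 0.0328), with all 3 E15.5 libraries below all 3 at E12.5. The call of Nrp2 was lost without E12.5 KO replicate 2 or any 1 of the E15.5 KO libraries, that of Slit2 without any library but E12.5 KO replicate 3, and that of Slit1 without E12.5 KO replicates 1 or 3 or E15.5 KO replicates 1 or 3. That of Ntn1 was lost without E15.5 KO replicates 1 or 3. The change of Ephb1, -1.89 (SE 0.52, adjusted p = 0.0138), rested on E12.5 KO replicate 3, without which it was -0.66 (adjusted p = 0.579), and was lost too without E12.5 KO replicate 1 or E15.5 KO replicate 3.

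Sema3a was the member with an interval in all 3 E12.5 KO libraries and no E15.5 KO library, where 0.914% of 6780 genes showed this, and no member showed the reverse (0.546%). The covered length of Sema3f, Nrp2, Slit3, Unc5a, Unc5b, Epha7, Ephb3 and Efna4 was higher in every E15.5 than in every E12.5 KO library, 8 members where 6.49% of genes did so. That of Sema3a, Sema6d and Epha5 was lower, 3 members where 3.10% of genes did so.

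Other genes of the same pathways gave no call for genotype at either stage by edgeR with depth scaling. A list of 37 other guidance ligands and receptors had 14 genes with an interval in all 12 libraries and 4 in none. None of its testable genes passed at E12.5 (0 of 18, with 6 lower at an unadjusted p below 0.05) or at E15.5 (0 of 14, with 1 lower) by edgeR with depth scaling. TMM factors and DESeq2 also called 0 at each stage. With depth scaling 4.04% of all genes were lower at E12.5 and 0.408% higher at E15.5. Over both stages 1 of 14, Gfra1, was lower with TMM factors (all genes 1.97% lower) and with DESeq2 (4.53% lower). With the replicate number as a block Gfra1 was lower at E12.5 (all genes 9.49% lower). From E12.5 to E15.5, with depth scaling, 5 of 15 fell and 0 rose in WT (all genes 35.8% lower), and 2 of 19 fell and 0 rose in KO (5.49% lower). With TMM factors 2 fell and 2 (Draxin and Gfra1) rose in WT, where 17.1% of all genes were lower and 10.3% higher. In KO 3 fell and 2 (Epha10 and Gfra1) rose with TMM factors, where 7.69% of all genes were lower and 8.82% higher. DESeq2 called 3 lower and 3 higher in WT, where 14.6% of all genes were lower and 14.2% higher. In KO it called 3 lower and 2 higher, where 8.59% of all genes were lower and 10.2% higher. A list of 30 intracellular effectors had 5 genes with an interval in all 12 libraries and 7 in none. It gave 0 calls of 7 at E12.5 (2 at an unadjusted p below 0.05) and 0 of 5 at E15.5 (3 at that level) by edgeR. DESeq2 called 1 of 7 at E12.5 (Dpysl5, higher, where 2.32% of all genes were higher) and 0 of 5 at E15.5. Between the stages, with depth scaling, 2 of 5 effectors (Ngef and Nfatc4) fell in WT, where 35.8% of all genes were lower. In KO 0 of 7 changed (1 at an unadjusted p below 0.05), where 5.49% of all genes were lower and 4.13% higher. With TMM factors and with DESeq2 Nfatc4 was lower and Crmp1 higher in WT. Of all genes in WT, 17.1% were lower and 10.3% higher with TMM factors, and 14.6% and 14.2% with DESeq2. In KO the 2 settings called 0 and 1 (Rnd1, lower), where 8.59% of all genes were lower with DESeq2.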

How the data were processed

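Per the submitters' processing notes, cutadapt, Bowtie2, SAMtools, Picard, deepTools and SICER were used on builds GRCm38 and mm10, with thresholds and versions not given in the sources used here. The authors deposited 1 list of intervals per library, not pooled over replicates, with a whole-number count per interval that is not normalized. The authors also deposited a score per interval, from which the mean count per 200 bp window (the depth) was recovered, as the Poisson mean that gives the scores of single-window intervals. The largest misfit was 0.0041 (E12.5 KO replicate 2), and E12.5 KO replicate 1 had only 4 such intervals. That this depth follows the total reads is an assumption.

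Gene positions and starts came from RefSeq tables of GRCm38.p6. Counts of whole intervals touching a window were summed per gene and tested with edgeR 4.0.16 (quasi-likelihood, Benjamini-Hochberg over all autosomal protein-coding genes tested, threshold 0.05) in R 4.3.3, for genes with an interval in every library compared, with library sizes proportional to depth. An SE is the change over the square root of F. Alternatives were TMM factors, DESeq2 1.42.0, the replicate number as a block, counts inside the window, a mean count of at least 50, an interval in all but 1 library of each group, no flanks, and each library left out. For presence and covered length they were lists cut to 5008 intervals, no flanks, scores above each list's median, and each library left out. On simulated counts with 200 genes changed 4-fold, the test recovered 93% of them at E12.5 and 94% at E15.5, and of genes changed 2-fold 1% and 18%.

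Values per library are given for members past the threshold for genotype, the 5 most covered, and Nrp1, Nrp2, Slit1, Robo1, Epha4, Cxcl12, Cxcr4, Ackr3, Nrg1 and Erbb4. Other members described with values were chosen after these were seen. The members and lists were chosen with earlier results of these data known, and so was the scaling by depth. The heterozygous samples were not analysed here. A gene of the marker lists is not reported here. Tables were built in Python 3.11.15 with pandas 2.3.3, and figures drawn with matplotlib 3.10.9.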

Additional observations from a re-analysis of the deposited data

Results flagged for a closer look

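The values of Slit3 differed in opposite directions between the stages in the 2 genotypes. In WT the mean covered length changed by -64.88 kb from E12.5 to E15.5 and the mean normalised count by -626.7, with all 3 E15.5 libraries below all 3 E12.5 libraries. In KO the mean covered length changed by 17.73 kb and the mean normalised count by 179.0, with all 3 E15.5 libraries above all 3 E12.5 libraries. By edgeR's quasi-likelihood test of the counts with depth scaling, the WT log2 change of -1.37 passed (adjusted p = 0.0278) and the KO change of 0.70 did not (adjusted p = 0.176). With TMM factors the WT change was -0.89 (adjusted p = 0.0617) and the KO change 0.74 (adjusted p = 0.0179). The opposite directions of the covered length were not tested. All members were looked over for such opposite patterns, and the share of all genes with them was not counted. The same E12.5 libraries also give the genotype difference reported for Slit3, so this is not a separate result. For the counts, the test of the difference between the genotype effects at the 2 stages gave a log2 value of 2.07 (SE 0.48, adjusted p = 0.0696) with edgeR's quasi-likelihood test, 1.49 with TMM factors (adjusted p = 0.0902) and 1.48 with DESeq2 (adjusted p = 0.00256).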

How the results depend on the processing

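Counts of calls below follow the order genotype at E12.5, genotype at E15.5, genotype over both stages, genotype effect between the stages, stages in WT and stages in KO. With depth scaling 1, 0, 0, 0, 5 and 3 members were lower and 0, 1, 0, 0, 1 and 3 higher, and 127, 2, 23, 0, 939 and 165 of all genes were lower and 0, 11, 1, 14, 45 and 124 higher. With TMM factors 1, 0, 0, 0, 1 and 2 members were lower and 0, 1, 2, 0, 5 and 7 higher, and 38, 2, 49, 0, 449 and 231 of all genes were lower and 9, 15, 53, 6, 271 and 265 higher. With DESeq2 1, 0, 0, 0, 2 and 2 members were lower and 3, 1, 2, 1, 6 and 6 higher, and 98, 24, 113, 5, 382 and 258 of all genes were lower and 73, 48, 104, 38, 373 and 305 higher. With counts inside the window 2, 0, 0, 0, 4 and 2 members were lower and 1, 1, 0, 1, 2 and 3 higher, and 217, 2, 45, 0, 811 and 137 of all genes were lower and 3, 16, 3, 25, 39 and 111 higher. With a mean count of at least 50 1, 0, 0, 0, 5 and 3 members were lower and 0, 1, 0, 0, 1 and 3 higher, and 114, 2, 23, 0, 956 and 129 of all genes were lower and 0, 16, 1, 14, 39 and 109 higher. With an interval asked for in all but 1 library of each group 0, 0, 0, 0, 2 and 0 members were lower and 0, 0, 0, 0, 0 and 1 higher, and 6, 0, 0, 0, 556 and 53 of all genes were lower and 0, 1, 0, 0, 21 and 58 higher. Without flanks 1, 0, 0, 0, 5 and 3 members were lower and 0, 1, 0, 0, 2 and 3 higher, and 131, 2, 20, 0, 874 and 161 of all genes were lower and 1, 16, 1, 13, 45 and 120 higher.

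Replicate numbers shared between groups were not taken as pairs, because the labels do not say which embryos went into each library. The deviations of same-numbered libraries from their group means correlated across genes at 0.12, 0.06 and 0.04 between genotypes at E12.5 and at -0.24, -0.17 and -0.36 at E15.5. Between stages they correlated at 0.40, 0.03 and 0.27 in WT and at 0.03, -0.04 and 0.13 in KO. Libraries of other numbers ran from -0.09 to 0.04 at E12.5, -0.08 to 0.29 at E15.5, -0.38 to 0.27 in WT and -0.11 to 0.07 in KO. These correlations do not settle whether the libraries were paired. With the replicate number as a block 4, 0, 0, 0, 6 and 1 members were lower and 1, 0, 0, 1, 2 and 2 higher, and 298, 0, 5, 0, 1013 and 135 of all genes were lower and 7, 0, 0, 52, 54 and 82 higher. At E12.5 the 4 lower members with the block were Slit3, Sema3f, Unc5b and Nrg1.

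With 1 library left out at a time there were, in that order, 0 to 7, 0 to 0, 0 to 0, 0 to 0, 0 to 6 and 0 to 3 members lower. There were 0 to 1, 0 to 1, 0 to 1, 0 to 8, 0 to 2 and 1 to 5 members higher. There were 11 to 900, 0 to 2, 0 to 39, 0 to 0, 83 to 1351 and 68 to 138 of all genes lower and 0 to 8, 0 to 12, 0 to 4, 0 to 957, 2 to 94 and 77 to 189 of all genes higher.

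Counts of members by presence and covered length follow the order genotype at E12.5, genotype at E15.5, stages in WT and stages in KO. The share of all genes was counted in the full lists only, so the other settings have no background. In the full lists 0, 0, 2 and 1 members were lost from all libraries to none and 0, 0, 0 and 0 gained, and 4, 0, 6 and 3 were covered less without overlap and 0, 3, 0 and 8 more. In lists of equal length 1, 0, 1 and 0 members were lost from all libraries to none and 0, 0, 0 and 1 gained, and 5, 0, 6 and 1 were covered less without overlap and 0, 5, 0 and 9 more. With scores above each list's median 0, 0, 2 and 0 members were lost from all libraries to none and 0, 2, 0 and 1 gained, and 1, 0, 3 and 2 were covered less without overlap and 0, 4, 0 and 8 more. Without flanks 1, 0, 2 and 1 members were lost from all libraries to none and 0, 0, 0 and 1 gained, and 4, 0, 6 and 3 were covered less without overlap and 1, 3, 0 and 7 more. With 1 library left out these were 0 to 2, 0 to 0, 2 to 6 and 1 to 3 lost, 0 to 0, 0 to 2, 0 to 1 and 0 to 1 gained, 4 to 21, 0 to 4, 6 to 22 and 3 to 8 covered less and 0 to 3, 4 to 9, 0 to 1 and 8 to 12 covered more, where fewer libraries make groups that do not overlap more frequent by construction.

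The log2 changes of the 16 member results with a call (with depth scaling, or over both stages with TMM factors) kept their sign under every alternative run, while that of Efna3 between genotypes at E12.5, which had no call, did not. Single libraries that ended a call are named beside each gene in the report. On the simulated counts with 3 libraries a group, the test recovered 1% and 18% of 2-fold changes between genotypes at E12.5 and E15.5. Between stages it recovered 0.5% in WT and 16.5% in KO. In the data smaller changes passed between the stages in WT, such as that of Nrp2 (log2 change 0.49). These single genes do not show that 2-fold changes are recovered more often in the data than in the simulation. The simulation changed as many genes up as down, whereas 939 of all genes were lower and 45 higher between the stages in WT. An interval that was not called has no count, and the recovered depth of E12.5 KO replicate 1 rests on 4 intervals. The cause of the differences between settings was not tested.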
